A study of Mus musculus with 3 samples.

Results

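Ad4BP/SF-1 peaks were examined at 9 genes that supply acetyl-CoA or turn it into fatty acids: *Acly*, *Acss1*, *Acss2*, *Acaca*, *Acacb*, *Fasn*, *Elovl6*, *Scd1*, and *Scd2*. They are 9 of 21951 protein-coding genes in GENCODE and were listed by name for their place in the pathway, with earlier results of these data known. A peak was given to a gene when it shared at least 1 bp with the gene in mm10, from its first to its last annotated base, or with the 50 kb flanking it at each end. The data came from Leydig cells, the androgen-producing cells of the testis, which were isolated on a Percoll gradient from pooled 9-week-old male mice of the ICR strain and cultured with vehicle or with cAMP. The labels name no genetic change in these mice and no dose or duration for cAMP, and Ad4BP/SF-1 chromatin was sequenced from 1 library per condition. Since neither condition was repeated, differences between vehicle and cAMP have no replicate check, and no p-value was computed.

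Acetyl-CoA made from glucose arises inside mitochondria, leaves them as citrate, and is released again in the cytosol by ATP citrate lyase, the product of *Acly*. From there it can enter cholesterol synthesis, which feeds steroid production, or be carboxylated to malonyl-CoA and built into fatty acids, which are then elongated and desaturated. Ad4BP/SF-1, encoded by *Nr5a1*, is a nuclear receptor of steroid-producing cells that binds DNA as a monomer, and cAMP is the second messenger of luteinizing hormone in Leydig cells. The consensus counted here has 8 bases and 4 forms, TCAAGGTC, TCAAGGCC, CCAAGGTC, and CCAAGGCC, on either strand.

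There were 5721 vehicle peaks, with a median score of 72.4, and 4025 cAMP peaks, with a median of 67.8. The score is the authors' MACS value, which was read as 10 times the negative log10 of the p-value of a peak, as MACS writes it, and both lists begin at about 50. Read numbers are not in the lists, and depth, which raises the score, is therefore unknown for both libraries. Each peak is for this reason also described by its rank within its own list. Where a list has no peak, the region did not pass that call, and binding there may still have occurred. Peaks cannot show which genes are expressed, so the cell type could not be checked by transcripts. Of 10 genes of steroid-producing Leydig cells, 5 had a vehicle peak and 4 a cAMP peak in the same window, with *Star*, *Cyp11a1*, *Scarb1*, and *Nr5a1* in both lists, *Cyp17a1* in the vehicle list only, and *Hsd3b1*, *Hsd3b6*, *Insl3*, *Lhcgr*, and *Nr0b1* in neither. Genes that mark other testis cells also had peaks, namely 2 of 3 Sertoli cell genes, 1 of 3 germ cell genes, and 1 of 2 macrophage genes among vehicle peaks and 1 of 3, 1 of 3, and 1 of 2 among cAMP peaks. Over all protein-coding genes, 36.7% had a vehicle peak and 28.8% a cAMP peak in this window, so these small counts do not set Leydig cell genes apart.

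At *Acly*, the highest-scoring peak lay in intron 10 and was called in the cAMP list only. It spanned chr11:100513612-100514204, scored 256.91, and held 2 copies of the consensus whose starts were 13 bp apart on the same strand. The copies are shown on the strand on which they read, opposite to the gene, each in capitals with 10 bases on either side, because the windows overlap and both lie close to the centre of the peak.
Acly intron 10, first copy, plus strand of chr11:100513875-100513902: aaggatgttcCCAAGGTCctgcctcaag
Acly intron 10, second copy, plus strand of chr11:100513888-100513915: aggtcctgccTCAAGGCCatgcacaggg

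The highest-scoring peak of *Acacb* was called in both lists, lay at an internal transcript start, and held 2 copies on opposite strands, a TCAAGGTC and a CCAAGGCC. A neighbouring *Acacb* peak, also called in both lists, held no copy. It did not hold the 7-base forms CAAGGTC or CAAGGCC either, which says only that these letters are not in this window.

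Of the 9 members, 6 had a vehicle peak and 8 had a cAMP peak, and *Fasn* had none. In the vehicle list, 36.7% of all protein-coding genes had a peak in the same window, and in the cAMP list 28.8% did. All 6 members with a vehicle peak also had a cAMP peak, so 6 of 9 had peaks of both lists, against 22.5% of all genes, and 8 of 9 had a peak of either list, against 43.1%. Within the gene body alone, 2 members had a vehicle peak, against 12.6% of all genes, and 5 had a cAMP peak, against 9.15%. The members had a median length of 51.6 kb against 17.4 kb for all genes, although *Scd1* (13.4 kb) and *Scd2* (13.2 kb) were shorter than that. Long genes had peaks more often. Of the 3 members over 100 kb, *Acaca*, *Acacb*, and *Elovl6*, 2 had a vehicle peak and 3 a cAMP peak, where 46% and 39.8% of all genes of that length did. Of the 3 members from 25 to 100 kb, *Acly*, *Acss1*, and *Acss2*, 2 had a vehicle peak and 3 a cAMP peak, where 41.4% and 33.1% did. Of the 3 members under 25 kb, *Fasn*, *Scd1*, and *Scd2*, 2 had a peak in each list, where 32.7% and 24.7% did. In the gene body, no member under 25 kb had a peak, where 5.72% (vehicle) and 3.54% (cAMP) of all genes of that length did. *Acss1* in the vehicle list and *Acly* and *Acss1* in the cAMP list had one among the 3 members from 25 to 100 kb, against 18.3% and 13.4%. *Acacb* in the vehicle list and all 3 members over 100 kb in the cAMP list did, against 34.6% and 27.9%. With 3 genes in each class, these counts describe the members and were not tested.

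The windows held 8 vehicle peaks and 13 cAMP peaks, in 17 separate regions. Of the 8 vehicle peaks 4 lay in a gene body (50%), and of the 13 cAMP peaks 9 did (69.2%). When all genes were paired with the peaks in their windows, 28% of 13771 vehicle pairs and 28.5% of 8966 cAMP pairs were in the gene body. The median length of all genes was below that of the members. As a description of the 21 peaks only, 12 lay in introns, 5 between genes, and 2 met a coding exon, while the last 2 lay inside the bounds of another gene but outside its principal transcript. The members differed in where and how strongly the peaks stood. *Acacb* and *Acly* held every member peak above 126.3 in either list, *Scd2* held the vehicle peak of that score, and each peak of the other members scored under 100.

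**Figure D1:**
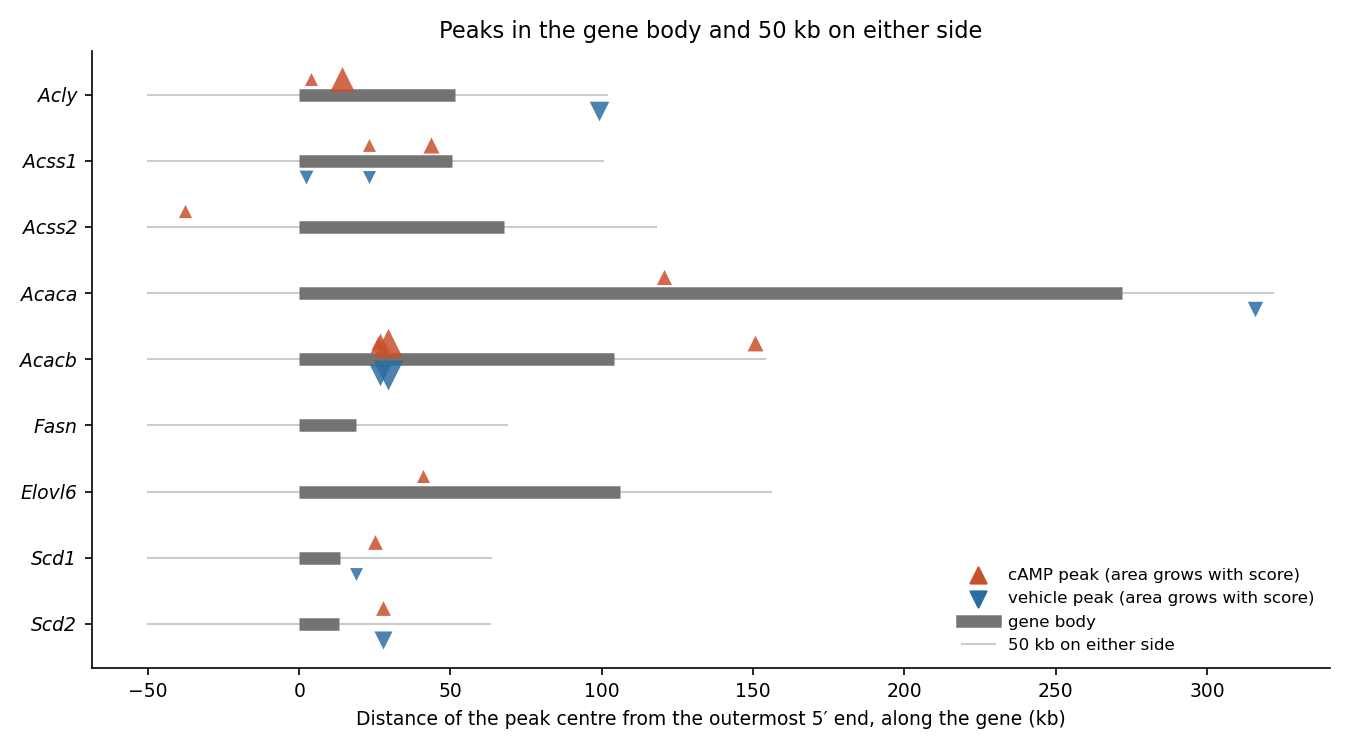
Peaks at the 9 genes by distance of the peak centre from the outermost 5′ end of the gene, in kb along the direction of transcription. Upward triangles are cAMP peaks, downward triangles vehicle peaks, marker area grows with the score, thick bars are gene bodies and thin lines the 50 kb on either side. The shared *Acacb* peaks lie at 26.6 and 29.2 kb, *Acly* has cAMP peaks in the gene and a vehicle peak far downstream, and *Fasn* has none.

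*Acly* encodes ATP citrate lyase, which splits cytosolic citrate into acetyl-CoA and oxaloacetate, and lies at chr11:100476353-100528000 on the minus strand. Its intron 10 peak, centred 14.1 kb from the outermost 5′ end, ranked 73 in the cAMP list, above 98.2% of its peaks. The vehicle list, which begins at a score of about 50, held no peak within 84.4 kb of it. A second cAMP peak, at chr11:100523716-100524209 in intron 1, scored 53.57 and ranked 3416, above 15.1% of the list. Its centre stood 364 bp before an alternative start of *Acly*, and it held a single TCAAGGCC. No vehicle peak overlapped this peak either.

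The only vehicle peak in the *Acly* window stood 47.2 kb beyond the 3′ end, at chr11:100428398-100429168. It scored 153.48 and ranked 593, above 89.6% of the vehicle list, and had no cAMP counterpart. This peak lay inside the bounds of *Nt5c3b*, 12145 bp from the start of that gene, which was the nearest protein-coding start. Peaks of the lists at *Acly* were thus in different places, 84.4 kb apart or more, and with the gene body alone *Acly* had peaks in the cAMP list only.

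Peaks as high as the intron 10 peak of *Acly* mostly had a counterpart. Of the 73 cAMP peaks that scored at least 256.91, 71 (97.3%) overlapped a vehicle peak and 2 did not. In the highest-scoring 10% of the cAMP list, which began at 140.93, 95.3% of 403 peaks did (95% exact Clopper-Pearson interval 92.7% to 97.1%). This interval, like the others given here, covers counting error only. The other member with a cAMP peak of this height, *Acacb*, had 367.18 in the cAMP list over a vehicle peak of 389.73. Every other cAMP peak without a counterpart at the members scored 95.21 or lower.

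*Acss1* encodes the mitochondrial acetyl-CoA synthetase, which makes acetyl-CoA from acetate, and lies at chr2:150618105-150668500 on the minus strand. Each list held 2 peaks in the gene body. In intron 2, a vehicle peak of 53.54 (rank 5059, chr2:150645232-150645787) overlapped a cAMP peak of 51.82 (rank 3671, chr2:150645266-150645653), so the shared *Acss1* peak stood near the bottom of both lists. The other vehicle peak, in intron 1 at chr2:150666060-150666376, scored 64.4, ranked 3601, and lay 2040 bp inside the gene from its nearest start. The other cAMP peak, at chr2:150624869-150625301, scored 95.21, ranked 1024, and contained the whole of coding exon 11 of *Acss1*, which has 128 bp. The start nearest to this peak, at 16518 bp, was that of *Apmap*. Neither of these had a counterpart.

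*Acss2* encodes the enzyme that makes acetyl-CoA from acetate in the cytosol and nucleus, and lies at chr2:155517948-155585724 on the plus strand. Its window held 1 peak, of the cAMP list, at chr2:155480018-155480498, which scored 55.19 and ranked 3215. This peak stood 37.5 kb upstream of *Acss2*, and the nearest start, 6364 bp away, was that of *Ncoa6*. The vehicle list held no peak in the *Acss2* window. Of the 3 genes that supply acetyl-CoA, only *Acly* had a peak above 100 in either list.

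*Acaca* and *Acacb* encode the acetyl-CoA carboxylases that make malonyl-CoA, which is used for fatty acid synthesis and, at the mitochondrial surface, restrains fatty acid oxidation. *Acaca*, at chr11:84129672-84401651 on the plus strand, had a cAMP peak of 81.06 (rank 1401) in intron 15 at chr11:84249951-84250384. Its only vehicle peak, of 85.33 (rank 2056), lay 43.7 kb beyond the gene at chr11:84445345-84445832, where it contained coding exon 11 of *Aatf*. The *Acaca* peaks were 195 kb apart, so neither was a counterpart of the other.

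*Acacb*, at chr5:114146535-114250761 on the plus strand, had the highest score of all members in both lists. The peak at the internal start scored 389.73 in the vehicle list (rank 47, chr5:114175340-114176047) and 367.18 in the cAMP list (rank 28, chr5:114175408-114176027). It ranked above 99.2% of the vehicle list and 99.3% of the cAMP list. The peak lay in intron 2 of transcript Acacb-202, centred 29.2 kb from the outermost start of the gene, and its centre stood 213 bp (vehicle) and 189 bp (cAMP) before the start of Acacb-205, at base 114175906. GENCODE tags that transcript as supported by CAGE, a method that maps the 5′ ends of RNAs.

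The peak without the consensus lay 1.98 kb before it and scored 188.69 in the vehicle list (rank 362, chr5:114173001-114173358) and 155.97 in the cAMP list (rank 315, chr5:114173005-114173258). Of peaks without a copy, 16.9% (of 1122) in the vehicle list and 8.03% (of 922) in the cAMP list reached 100, a limit below these scores. Of peaks with a copy, at least 28.9% (vehicle) and 26.7% (cAMP) reached 100. A cAMP peak without counterpart, at chr5:114172219-114172694, scored 64.26 and ended 307 bp before the vehicle peak without the consensus. The last peak, of the cAMP list at chr5:114297065-114297679, scored 91.94, stood 46.3 kb beyond *Acacb*, and lay 8206 bp from the start of *Myo1h*. *Acacb* was the only member with peaks of 1 list within 5 kb of each other. Such a neighbour was found for 11.1% of all vehicle peaks and 7.01% of all cAMP peaks, and at the members for 2 of 8 and 3 of 13, all at *Acacb*.

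*Fasn* encodes fatty acid synthase, which builds palmitate from acetyl-CoA and malonyl-CoA, and lies at chr11:120805846-120824547 on the minus strand. No peak of either list lay in its window. The nearest vehicle peak was 78.9 kb upstream and scored 72.24, closest to the start of *Ccdc57*. The nearest cAMP peak was 129 kb downstream and scored 67.19, closest to *Aspscr1*. *Elovl6*, at chr3:129532355-129638495 on the plus strand, encodes the elongase that extends palmitate. It had a single cAMP peak of 53.87 (rank 3367) in intron 2 at chr3:129573001-129573439, and the nearest vehicle peak was 1360 kb away.

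*Scd1* and *Scd2* encode stearoyl-CoA desaturases, which put a double bond into saturated fatty acyl-CoA. They lie near each other on chromosome 19, *Scd2* at chr19:44293674-44306864 on the plus strand and *Scd1* at chr19:44394455-44407879 on the minus strand. Between them, downstream of both genes, lay all peaks in their windows. *Scd1* had a vehicle peak of 52.04 (rank 5331) at chr19:44388726-44389217 and a cAMP peak of 75.59 (rank 1601) at chr19:44382787-44383271, which were 5.46 kb apart and not counterparts. *Scd2* had a shared peak, with a score of 126.3 (rank 935) in the vehicle list at chr19:44321205-44321593 and of 76.14 (rank 1583) in the cAMP list at chr19:44321082-44321605. It lay 14.3 and 14.2 kb beyond *Scd2* and closer to the start of *Scd4*, another desaturase gene, at 11693 and 11749 bp.

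**Figure D2:**
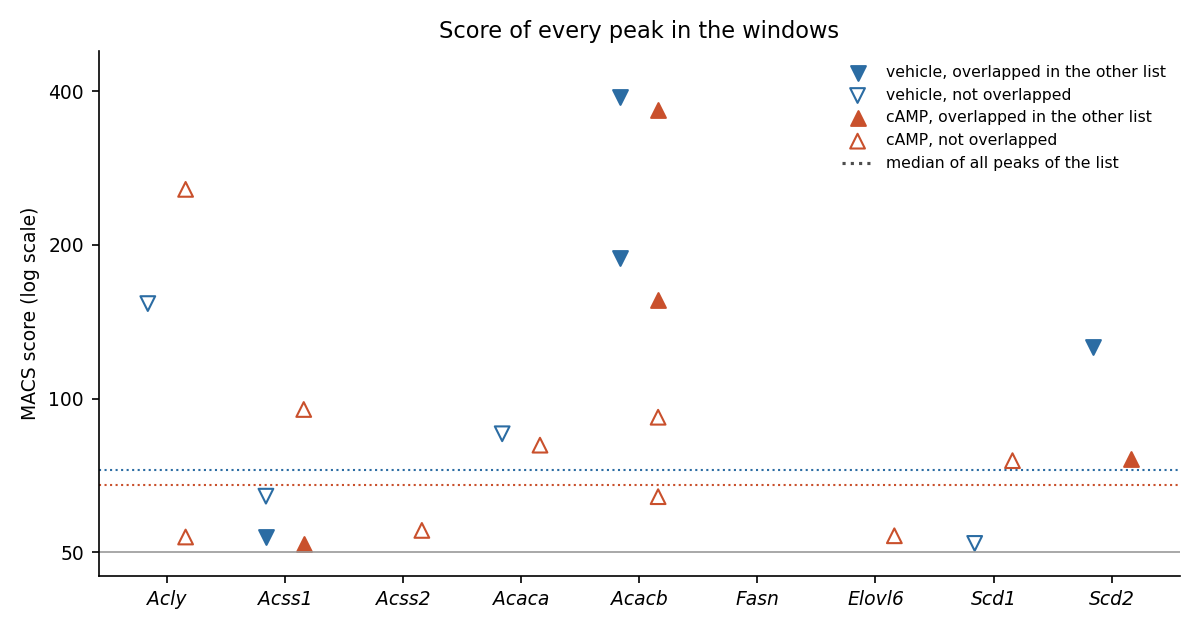
MACS score of each member peak on a log scale, by gene, with vehicle peaks as downward and cAMP peaks as upward triangles. Filled symbols overlap a peak of the other list, open ones do not, dotted lines are the medians of all peaks (72.4 vehicle, 67.8 cAMP), and the grey line marks 50. The open cAMP symbol of *Acly* at 256.91 stands between the filled pairs of *Acacb*, and the other open symbols above 100 are limited to the *Acly* vehicle peak at 153.48.

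The 50 kb limit decided which distant peaks were counted. Just inside it were the *Acly* vehicle peak at 47.2 kb, the *Acacb* cAMP peak at 46.3 kb, and the *Acaca* vehicle peak at 43.7 kb. Just outside were the shared peak of *Scd2*, 72.8 kb from *Scd1* in the cAMP list, and the *Scd1* cAMP peak, 75.9 kb from *Scd2*. Next came a peak 76.4 kb upstream of *Acly*, nearest to the start of *Dnajc7*, which was called in both lists and scored 141.76 (rank 704) in the vehicle list and 464.74 (rank 14) in the cAMP list. The highest-scoring cAMP peak within 100 kb of *Acly* was therefore not the intron 10 peak but this more distant peak.

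Across the members, 4 of 8 vehicle peaks had a cAMP counterpart (50%, 95% exact interval 15.7% to 84.3%), where 37.9% of all vehicle peaks did. Of the 13 cAMP peaks, 4 had a vehicle counterpart (30.8%, 9.09% to 61.4%), where 53.8% of all cAMP peaks did. Both intervals include the share of the whole list. Over all peaks the share with a counterpart fell with the score, with 85.3% in the highest-scoring 10% of the vehicle list against 15.2% in the lowest-scoring 10%, and 95.3% against 21.6% for cAMP. Of the 9 cAMP peaks without a counterpart, all but the intron 10 peak of *Acly* scored under 100. Those of 95.21 and 91.94 fell in the 10% of the list from 87.64 to 106.42, where 72.5% had a counterpart. Those of 81.06 and 75.59 fell in the 10% from 75.38 to 87.57, where 63.5% did. The rest scored 64.26 or lower, where 49.5% or fewer did in each 10%. The intron 2 peak of *Acss1* was shared although it ranked above only 11.5% of the vehicle list and 8.62% of the cAMP list. Near the lower limit of the lists, 2 of 8 vehicle peaks and 4 of 13 cAMP peaks of the members scored under 60, where 28.1% and 35.4% of all peaks did.

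**Figure D3:**
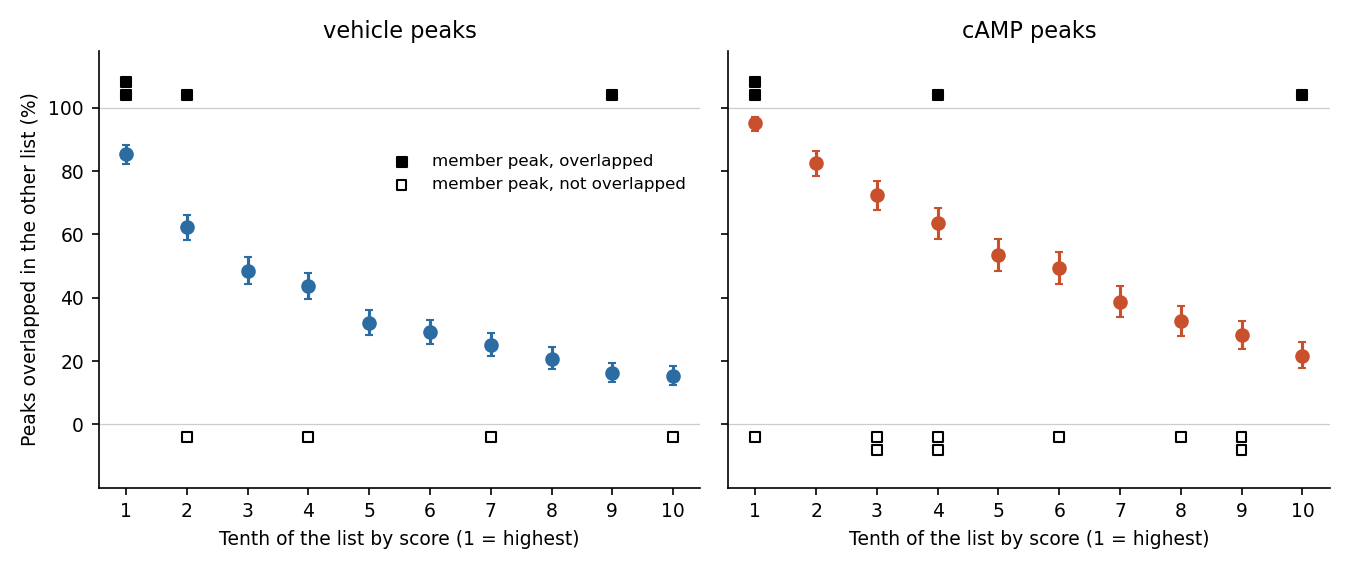
Share of peaks overlapped in the other list, in percent, in 10 equal classes of the list from the highest scores (1) to the lowest (10), with 95% exact intervals, for vehicle peaks on the left and cAMP peaks on the right. Squares are the member peaks, filled above 100 where overlapped and open under 0 where not. The share falls from 85.3% to 15.2% and from 95.3% to 21.6%, and the open square in the first cAMP class is the *Acly* intron 10 peak.

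The shared peaks allowed the only direct comparison of scores between vehicle and cAMP. The cAMP score divided by the vehicle score was 0.603 at *Scd2*, 0.968 at *Acss1*, 0.942 at the internal start of *Acacb*, and 0.827 at its neighbour without the consensus. All 4 were below 1, where 38.9% of all 2167 shared peaks were above it. The median ratio over all of them was 0.881, with 5% of pairs below 0.383 and 5% above 1.89. By the share of its own list that scored lower, 1 of the 4, the *Acacb* internal start, stood higher in the cAMP list (99.3% against 99.2%), where 44.6% of all shared peaks did. Plain rank numbers cannot be compared in this way, because the lists differ in length. None of the 4 ratios lay outside the range of the middle 90% of shared peaks, and without replicates they were not tested.

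**Figure D4:**
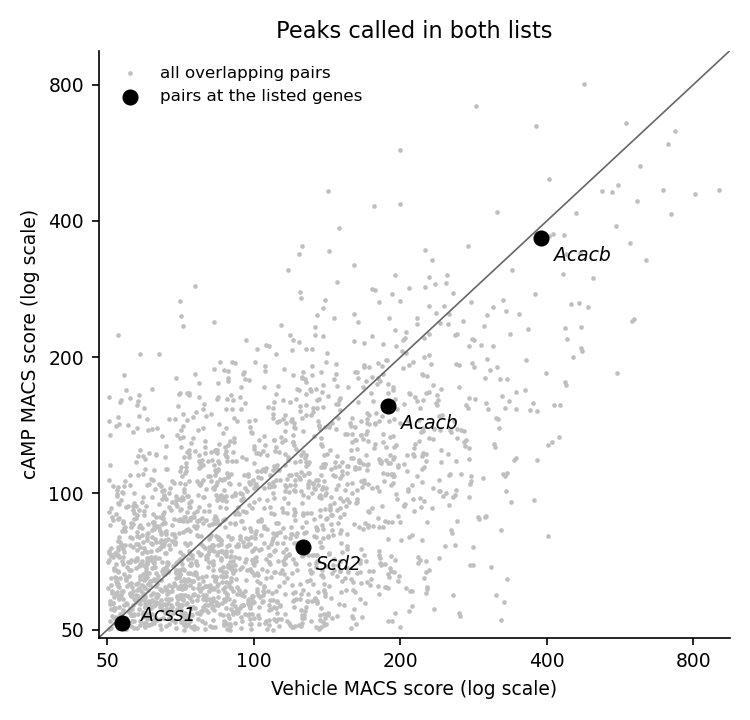
Scores of all overlapping peak pairs (grey) and of the 4 pairs at the members (black), vehicle on the horizontal and cAMP on the vertical axis, both on log scales. The line marks equal scores. The pairs at *Acacb*, *Scd2*, and *Acss1* lie below it, with *Scd2* farthest away at 126.3 against 76.14.

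Most member peaks held the consensus. In the vehicle list 6 of 8 had it (75%, 95% exact interval 34.9% to 96.8%), against 80.4% of the whole list. In the cAMP list 12 of 13 had it (92.3%, 64% to 99.8%), against 77.1%. The peaks without it were the *Acacb* neighbour in each list and the *Scd1* vehicle peak. The nearest copy stood a median of 35.5 bp from the centre in the vehicle peaks (3 to 76 bp) and 42.5 bp in the cAMP peaks (5 to 116 bp), where the median of all peaks was 36 bp in both lists. The 17 separate copies were 6 of TCAAGGCC, 5 of TCAAGGTC, 3 of CCAAGGTC, and 3 of CCAAGGCC.

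A pair of copies on the same strand with starts within 20 bp, as in intron 10 of *Acly*, was found at no other member. Such pairs occurred in 2.61% of all cAMP peaks and 2.39% of all vehicle peaks. A second copy at any distance was found only there and at the internal start of *Acacb*, against 20.8% (vehicle) and 19.4% (cAMP) over the lists. The weaker *Acly* peak, in intron 1, held 1 copy.

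Of the 17 copies, 6 were followed by the bases AGCCT, and all 6 lay in sequence that the genome marks as repeated, as did 8 of the 17 copies in all, the others being those of *Acss2* and *Scd1*. Over the whole lists, 36.1% (vehicle) and 40.9% (cAMP) of the copies lay in such sequence. These copies are shown on the strand on which they read, with 10 bases on either side and the copy in capitals, because they belong to 4 different members and still share the bases after the copy.
Acly intron 1, plus strand of chr11:100523917-100523944: gatcacaaggTCAAGGCCagcctgggcc
Acss1 intron 2, plus strand of chr2:150645561-150645588: ctgtgtgagtTCAAGGCCagcctggttt
Acaca intron 15, minus strand of chr11:84250202-84250229: aggcaagagtTCAAGGCCagcctggttt
Acaca downstream, plus strand of chr11:84445498-84445525: ggtttttagtTCAAGGTCagcctgtctc
Acacb intron 2, minus strand of chr5:114172458-114172485: ggtcaggaggTCAAGGTCagcctcagcc
Acacb downstream, minus strand of chr5:114297365-114297392: gaggtggagtTCAAGGCCagcctgggct

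The other copies, shown for contrast in the same way, had no such common flank. They include those of the *Acly* vehicle peak, the *Acss1* coding exon peak, and the peaks of *Acss2*, *Elovl6*, *Scd1*, and *Scd2*.
Acly downstream, minus strand of chr11:100428822-100428849: gttccttccaCCAAGGTCaatagaacgt
Acss1 exon 11 peak, plus strand of chr2:150625127-150625154: agtgaggcatCCAAGGCCaggggctctg
Acss1 intron 1, minus strand of chr2:150666201-150666228: ccttaagaggTCAAGGCCgctgggacga
Acss2 upstream, minus strand of chr2:155480239-155480266: gaccagaagtTCAAGGTCacccatgagt
Elovl6 intron 2, plus strand of chr3:129573163-129573190: gacaaatcctCCAAGGTCaggggtagaa
Scd1 downstream, plus strand of chr19:44383096-44383123: cgtggggaatTCAAGGTCatccctgagc
Scd2 downstream, minus strand of chr19:44321373-44321400: tccagcaaggCCAAGGCCacattcatta

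Across the lists, 12% (vehicle) and 13.7% (cAMP) of the copies were followed by AGCCT, and at the members 2 of 7 and 5 of 14 were. Member peaks with such a copy scored 53.54 and 85.33 in the vehicle list and between 51.82 and 91.94 in the cAMP list. This limit at 100 was not shared by the lists, where 29.4% (vehicle, of 703) and 31.4% (cAMP, of 535) of the peaks with such a copy reached 100, against 28.9% and 26.7% of peaks with other copies. The cAMP peak in intron 10 of *Acly* and the *Acacb* internal start held copies outside marked repeats.

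**Figure D5:**
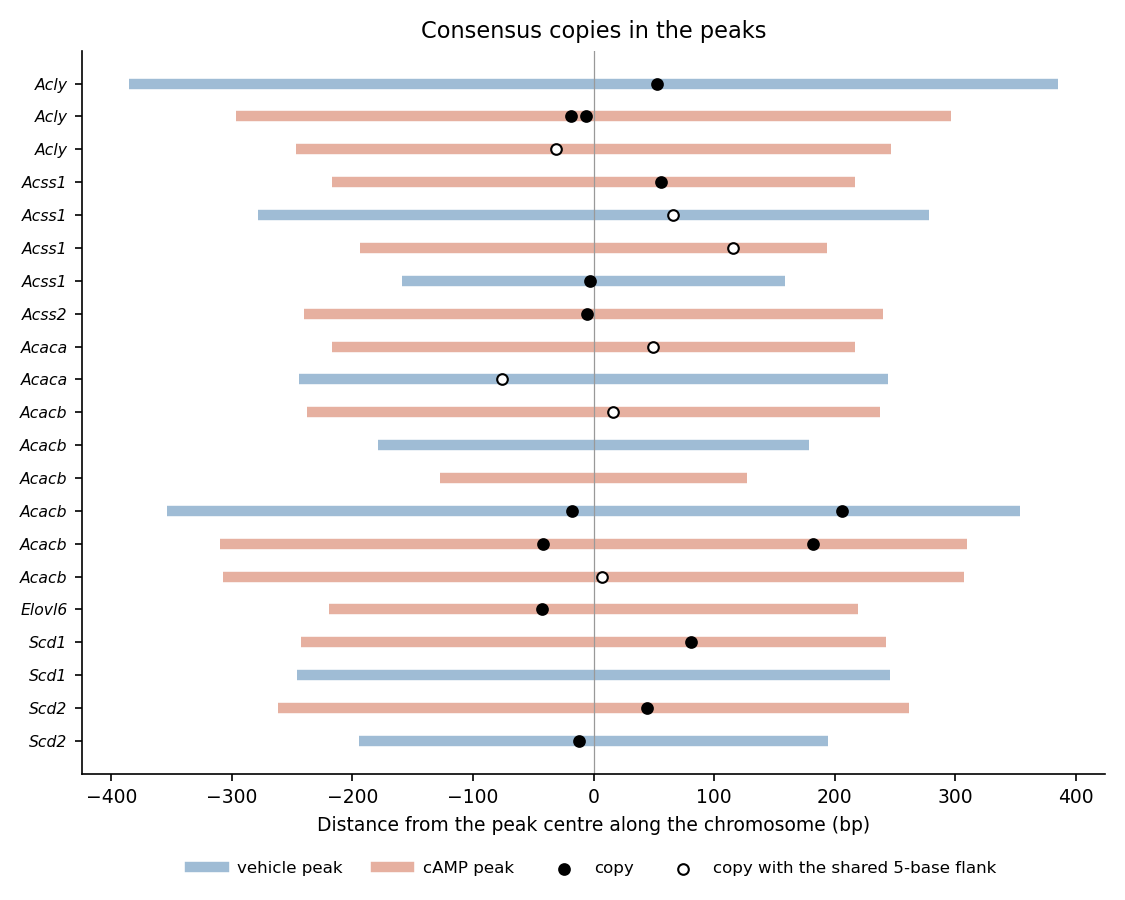
Position of each consensus copy relative to the peak centre, in bp along the chromosome, with 1 bar for each member peak in order of gene and position. Bars span the peak (blue vehicle, red cAMP), filled circles are copies, and open circles are copies followed by the shared 5-base flank. The *Acly* intron 10 peak carries its 2 copies side by side near the centre, and the bars without a circle are the *Acacb* neighbour and the *Scd1* vehicle peak.

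Other motifs were counted in the same peaks, on both strands. The AP-1 motif TGANTCA, bound by Fos and Jun proteins, was found in 6 of 8 vehicle peaks (75%, 34.9% to 96.8%), namely those of *Acly*, *Acss1* (both), *Scd1*, *Scd2*, and the *Acacb* neighbour, where 21.6% of all vehicle peaks held it. In the cAMP peaks of the members it was found in 4 of 13 (30.8%, 9.09% to 61.4%), against 23.2% of all cAMP peaks. These motifs were chosen after the peaks had been seen, and the counts are a description only. Neither *Acly* cAMP peak held this motif. The full cAMP response element TGACGTCA was in none of the 21 peaks, against 0.699% of all vehicle and 0.77% of all cAMP peaks. The sterol regulatory element TCACNCCAC, a site of SREBP proteins, was in the *Scd1* vehicle peak only, against 2.01% of all vehicle peaks. That peak held no consensus.

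Few of the peaks stood near the start of a member, so the promoters were searched as well. RefSeq promoters on GRCm38.p6, from 250 bp before to 50 bp after the start, were matched for 7 of the 9 members, *Scd1* and *Scd2* being without an entry. Each of the 7 had 1 entry, so other starts of these genes were not searched. None of the 7 was under a peak, and the nearest peak stood 1.81 kb away at *Acss1* (vehicle), 3.74 kb at *Acly* (cAMP), 6.65 kb at *Acacb* (cAMP), and farther at *Acss2*, *Acaca*, *Fasn*, and *Elovl6*. The *Acacb* entry, at chr5:114165268-114165567, was not the internal start at base 114175906, which lay under the highest peak of both lists. The cAMP peak of *Acaca* stood 30288 bp from another annotated start of that gene. The consensus was present in 3 of the 7 promoters, those of *Acss2*, *Acaca*, and *Elovl6*, against 5.73% of 32851 promoters. These copies, shown with 10 bases on either side and in capitals, stood 218, 220, and 184 bp before the RefSeq start.
Acss2 promoter, plus strand of chr2:155517811-155517838: cactgtcattCCAAGGCCccacccctct
Acaca promoter, plus strand of chr11:84195204-84195231: ctctgtgagtTCAAGGCCaggctgatct
Elovl6 promoter, plus strand of chr3:129532188-129532215: gagtatgaccTCAAGGCCacttcctccc

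No peak was called at these 3 copies in either list, and the distance to the nearest cAMP peak was 37.3 kb at *Acss2*, 54.5 kb at *Acaca*, and 40.6 kb at *Elovl6*. The promoter of *Acly* held neither the consensus nor the sterol regulatory element, which was in none of the 7 promoters and in 1.24% of all promoters. Near any annotated protein-coding start, within 1 kb, were the *Acacb* internal start peak in both lists and the *Acly* intron 1 peak, that is, 1 of 8 vehicle and 2 of 13 cAMP peaks, against 10.7% and 8.7% of all peaks.

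*Acly* was compared with 47 other genes of its pathway, from pyruvate entry into mitochondria to fatty acid activation. Of these, 25 (53.2%) had a vehicle peak, 24 (51.1%) a cAMP peak, and 20 (42.6%) peaks of both lists, against 36.7%, 28.8%, and 22.5% of all genes. In the gene body, 13 of 47 had a vehicle peak and 12 of 47 a cAMP peak, against 12.6% and 9.15% of all genes, without allowance for gene length. Among the 10 genes that carry pyruvate to citrate, 5 had peaks of both lists (50%, against 22.5% of all genes) and 1 had a cAMP peak only. *Mpc1*, a subunit of the mitochondrial pyruvate carrier, had the highest of them, with a vehicle score of 469.98 (rank 24) and a cAMP score of 210.08 (rank 131) 39 and 17 bp from its start. Only *Mpc1* of these 10 genes had a peak in the gene body, against 12.6% (vehicle) and 9.15% (cAMP) of all genes. The peaks of the others lay outside the gene, some of them nearest to the start of another gene. *Slc25a1*, which exports the citrate that *Acly* uses, had no peak in either list.

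Of the 20 other genes of fatty acid synthesis, elongation, and desaturation, 9 had a vehicle peak (45%), 11 a cAMP peak (55%), and 8 both (40%), where 36.7%, 28.8%, and 22.5% of all genes did. *Tecr*, the reductase of the last step of elongation, reached 199.28 in the vehicle and 266 in the cAMP list, and the elongase gene *Elovl5* reached 223.78 and 200.02. *Hsd17b12*, which acts in the same cycle, reached 208.28 and 80.29. Among *Me1*, which makes NADPH from malate, and the regulators, the highest peaks stood in the windows of *Me1*, with 276.28 (vehicle) and 280.88 (cAMP), and of *Mlycd*, which breaks down malonyl-CoA, with 175.92 (vehicle) and 256.64 (cAMP). At both genes the highest vehicle peak and the highest cAMP peak were in different places, and each overlapped a peak of the other list. The *Me1* vehicle peak lay 21 kb outside the gene and the *Me1* cAMP peak inside it. The *Mlycd* peaks lay 14.5 kb (vehicle) and 21.3 kb (cAMP) outside the gene, and the start nearest to them was that of *Osgin1*, at 8218 and 1437 bp. *Srebf1*, the gene of the transcription factor SREBP-1, had a vehicle peak of 86.4 at 12.8 kb from the gene and no cAMP peak. Of the 11 regulators 8 had a vehicle peak (72.7%) and 5 a cAMP peak (45.5%), and of the 5 activation genes 2 (40%) and 1 (20%) did, beside the same 36.7% and 28.8% of all genes.

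In the cAMP list, the 10 pathway genes with the highest-scoring peaks were *Me1*, *Tecr*, *Mlycd*, *Mpc1*, *Elovl5*, *Elovl1*, *Fads2*, *Thrsp*, *Hsd17b12*, and *Acsl3*, with scores from 280.88 to 76.82. The highest cAMP peak of each of these 10 overlapped a vehicle peak, as did 79% of all cAMP peaks that scored at least 76.14. Of all 24 pathway genes with a cAMP peak, 15 had a counterpart for their highest one and 9 did not, and those 9 peaks scored from 51.01 to 61.79. Over the whole cAMP list, 53.8% of peaks had a counterpart. The highest peaks of *Mlycd*, *Elovl1*, and *Fads2* lay outside the gene, by 21.3, 25.7, and 20.2 kb, whereas the *Acly* peak lay in an intron. *Acly*, whose 256.91 falls between *Tecr* and *Mlycd* in this order, had no vehicle counterpart for its peak, a difference that could not be tested with 1 library per condition. In the vehicle list, the highest peak had a counterpart at 15 of 25 pathway genes, where 37.9% of all vehicle peaks did. The 10 without one scored from 51.81 to 129.6, among them those of *Fads1* (129.6), *Mlxipl* (114.11), and *Hacd3* (110.14). The distant *Acly* vehicle peak of 153.48 had no counterpart either. The median score was 106 for the 8 member peaks and 72.4 for all peaks in the vehicle list, and 76.1 for the 13 member peaks and 67.8 for all in the cAMP list. *Scd4*, in the pathway list, shared its peak of 126.3 and 76.14 with *Scd2*, so these genes were not independent.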

How the data were processed

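Ad4BP/SF-1 was immunoprecipitated from cultured mouse Leydig cells and sequenced with 1 library for vehicle and 1 for cAMP. The input library was not used here. The authors mapped uniquely placed reads to mm10 and called peaks for each library with MACS. The submitters' processing notes name Bowtie 0.12.8 and FastQC 0.11.5. Whether the input was the control for peak calling is not given in the sources used here. Each line of a deposited list gives where a peak begins and ends and the authors' MACS score, read here as 10 times the sign-reversed log10 of the p-value, the form MACS writes. On that reading the lowest scores, about 50, stand for a p-value of 1e-05, which is stricter than the threshold in the study's methods, so the scale was inferred and not stated. Reads with several positions were left out by the authors, which can remove peaks in repeats. Depth is unknown.

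Gene models came from GENCODE M21 (mm10), with coordinates counted from 1, and starts were taken from protein-coding transcripts. *Pc* is listed there as *Pcx* and was matched by its RefSeq synonym. Peaks were counterparts when they shared at least 1 bp. Peak sequences and repeat marks were read from GRCm38 and promoters from the RefSeq table on GRCm38.p6. Python 3.11.15, pandas 2.3.3, scipy 1.17.1 and samtools 1.23.1 were used. The functions were tested on simulated data. Named genes were the members, the gene whose start was nearest to each member peak, the 10 pathway genes with the highest peak in each list, *Slc25a1* and *Srebf1*. Genes nearest to peaks outside the window, *Osgin1*, *Hacd3*, *Mlxipl*, and the genes that check the cell type were named in addition, *Osgin1*, *Hacd3* and *Mlxipl* after their values were seen. The members, gene lists and window were chosen with earlier results of these data known. The AGCCT flank, the other motifs, the 5 kb neighbour and the score under 60 were chosen after peaks had been seen. Some sequences are not reported here. Windows, score limits, gene assignment, overlap, consensus form and list length were varied.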

Additional observations from a re-analysis of the deposited data

How the results depend on the processing

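Of 75 values under alternative settings, 48 stayed within 1.5 times the reported count and 27 did not. Members with a vehicle peak fell from 6 to 2 with the gene body alone and to 3 with 10 kb on either side, with only peaks that score at least 100, or with each peak given to the gene of the nearest start. Members with a cAMP peak fell from 8 to 5 with the gene body or 10 kb and to 2 at a score of at least 100. Members with both fell from 6 to 2 in these 3 settings and to 3 by nearest start, and members with either from 8 to 5 with the gene body and 3 at a score of at least 100. Among pathway genes, the vehicle count of 25 became 13 (gene body) and 14 (at least 100). The cAMP count of 24 became 12 (gene body), 11 (at least 75), 7 (at least 100), and 15 (nearest start). The count in both, 20, became 9 (gene body), 12 (10 kb), 10 (at least 75), 7 (at least 100), and 12 (nearest start). With 10 kb, 3 member vehicle peaks held the consensus, and at a score of at least 75, 7 member cAMP peaks did, because fewer peaks remained. By the score as deposited, 0 of 4 shared member peaks were higher in cAMP (38.9% of all shared peaks), instead of 1 by the share of its own list that scored lower. Smaller windows and higher limits leave fewer peaks by construction. In the gene body, 12.6% of all genes had a vehicle peak and 9.15% a cAMP peak. Shares of all genes were taken only for the 50 kb window and the gene body. Counts under the other settings therefore do not show how members or pathway genes compare with all genes. No paired analysis was possible because each condition had 1 library, and for the same reason no replicate could be left out. Unknown depth limits every comparison between the lists.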
